A study of Mus musculus with 9 samples.

Results

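Copying the genome once per cell cycle needs a set of proteins that act in order. In the licensing step, the origin recognition complex and its partners Cdc6 and Cdt1 load the MCM2-7 helicase onto DNA, and geminin (*Gmnn*) holds Cdt1 back once DNA synthesis has begun. In the firing step, the Cdc7-Dbf4 kinase, Mcm10, Cdc45 and the GINS complex turn the loaded helicase on. At the fork, DNA polymerases, the Pcna sliding clamp, its loader, replication protein A and the enzymes that join Okazaki fragments carry out the synthesis. Many of these genes are known targets of the E2F transcription factors, which drive genes of the G1 to S transition, and their transcripts are abundant in embryonic organs such as the kidney, where progenitors are dividing.

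The 46 genes of this machinery were taken by name from the deposited table, in which each has a locus of its own among 24138 loci. Of these genes, 15 act in licensing, 8 in firing and 23 at the fork. The 9 libraries come from whole kidneys at E15.5, with 3 libraries for each of 3 genotypes. WT kidneys were *Ntn1*fl/fl with no Cre, HET kidneys were *Foxd1*GC/+;*Ntn1*fl/+ and MUT kidneys were *Foxd1*GC/+;*Ntn1*fl/fl, so all groups carry a floxed *Ntn1* allele and only HET and MUT carry the GFP-Cre insertion that replaces 1 *Foxd1* allele. This Cre acts in *Foxd1*+ stromal progenitors and their descendants, so cells of other lineages in a MUT kidney keep *Ntn1*, the gene of the secreted guidance cue netrin 1. The mice were on a C57Bl6/J background and the kidneys came from 3 separate crosses. Levels are given as FPKM, fragments per kilobase of transcript scaled to library size, and the number of reads behind them is unknown.

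Across whole kidneys, the targeted gene separated the genotypes in part. *Ntn1* FPKM was 17.8 to 28.9 in WT, 12.0 to 16.5 in HET and 10.8 to 16.5 in MUT, so MUT and HET overlapped. Mean levels were 24.3, 13.6 and 12.8 FPKM in WT, HET and MUT. This level does not check the MUT label against HET, and the reason for the overlap was not tested. By immunostaining, the paper found little or no Ntn1 protein around the nephron progenitors of such mutants. The labelled tissue was checked with 5 markers each of epithelium, nephron progenitors, ureteric tips, stromal progenitors and endothelium, and all were at 5 FPKM or more. HET-2 stood apart in hepatocyte transcripts, whose 8 markers summed to 773 FPKM against 28.3 to 54.1 in the other 8 libraries, and its erythroid sum was 3480 against 1909 to 2287 FPKM. Adrenal cortex markers summed to 2.37 to 3.79 FPKM in all 9 libraries, and macrophage markers to 31.8 to 50.8 FPKM. The part of liver transcripts in HET-2 values was not tested, and results are given with and without that library.

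The upstream DNA of the set holds a sequence feature that the choice of genes did not use. RefSeq promoter windows on GRCm38.p6, running from 250 bases before to 50 bases after an annotated start, were found for 37 of the 46 genes, in 46 windows. The windows were searched on both strands for 4 forms of the E2F site, spelled TTTCCCGC, TTTGGCGC, TTTCGCGC and TTTGCCGC. At least 1 of them was present in 15 of the 37 genes (40.5%). Among all 27025 genes with a window the share was 2.60%, and among the 7523 of at least 5 FPKM here it was 5.17%. TTTCCCGC occurred in 8 genes, TTTGGCGC and TTTCGCGC in 6 each and TTTGCCGC in 0. The CCAAT box was present in 21 of the 37 genes (56.8%, against 41.1% of all genes and 43.3% of the expressed ones). TTTGAA, the core of the CHR element of later cell cycle genes, was present in 7 (18.9%), below the 20.2% of all genes and above the 13.6% of expressed genes.

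The 6 windows below show the 5 helicase subunit genes with a window, 4 of which hold an E2F word, and *Rfc3*, a clamp loader gene with words on either side of its start. Each reads 5′ to 3′ on the strand of the gene, and capitals mark E2F words on either strand. Where 2 words overlap they form a single run of capitals, as in *Mcm5* and *Mcm6*. Positions count from 0 at the base that follows the 250 bases before the start, and give the first base of the word as printed. The windows lie at chr6:88898731-88899030 (*Mcm2*, minus strand, no word), chr1:20820263-20820562 (*Mcm3*, minus, words at 19 and 38), chr8:75109259-75109558 (*Mcm5*, plus, words at -153 and -149), chr1:128359656-128359955 (*Mcm6*, minus, words at -110, -106 and -47), chr5:138171834-138172133 (*Mcm7*, minus, words at -165 and 16) and chr5:151651159-151651458 (*Rfc3*, minus, words at -10 and 0).
Mcm2: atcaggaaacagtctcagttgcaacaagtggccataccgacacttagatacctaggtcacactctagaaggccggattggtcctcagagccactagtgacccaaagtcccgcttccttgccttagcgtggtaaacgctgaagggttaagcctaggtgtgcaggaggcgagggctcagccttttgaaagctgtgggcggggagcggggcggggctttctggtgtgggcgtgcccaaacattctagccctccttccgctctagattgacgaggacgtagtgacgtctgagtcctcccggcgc
Mcm3: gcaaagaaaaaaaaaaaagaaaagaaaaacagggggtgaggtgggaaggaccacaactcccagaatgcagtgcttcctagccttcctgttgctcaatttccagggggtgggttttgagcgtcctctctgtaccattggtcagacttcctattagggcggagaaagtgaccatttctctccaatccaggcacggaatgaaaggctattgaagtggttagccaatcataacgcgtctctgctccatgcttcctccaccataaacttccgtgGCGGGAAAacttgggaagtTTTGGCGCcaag
Mcm5: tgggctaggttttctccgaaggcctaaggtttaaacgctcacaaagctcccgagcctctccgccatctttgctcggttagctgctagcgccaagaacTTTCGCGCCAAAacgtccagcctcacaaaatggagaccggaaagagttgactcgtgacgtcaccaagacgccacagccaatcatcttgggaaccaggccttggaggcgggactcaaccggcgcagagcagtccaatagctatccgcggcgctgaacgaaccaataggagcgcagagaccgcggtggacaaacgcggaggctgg
Mcm6: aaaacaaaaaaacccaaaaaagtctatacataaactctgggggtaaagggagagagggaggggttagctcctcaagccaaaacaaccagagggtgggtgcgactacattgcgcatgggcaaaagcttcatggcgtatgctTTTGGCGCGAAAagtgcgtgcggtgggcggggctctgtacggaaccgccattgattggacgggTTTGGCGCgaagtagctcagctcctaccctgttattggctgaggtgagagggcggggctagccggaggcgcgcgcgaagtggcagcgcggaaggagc
Mcm7: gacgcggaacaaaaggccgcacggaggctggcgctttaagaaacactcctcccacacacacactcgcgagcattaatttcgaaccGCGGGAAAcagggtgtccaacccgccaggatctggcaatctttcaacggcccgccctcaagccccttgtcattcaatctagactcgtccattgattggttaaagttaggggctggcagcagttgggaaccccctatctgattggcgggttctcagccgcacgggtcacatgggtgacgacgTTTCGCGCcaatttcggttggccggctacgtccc
Rfc3: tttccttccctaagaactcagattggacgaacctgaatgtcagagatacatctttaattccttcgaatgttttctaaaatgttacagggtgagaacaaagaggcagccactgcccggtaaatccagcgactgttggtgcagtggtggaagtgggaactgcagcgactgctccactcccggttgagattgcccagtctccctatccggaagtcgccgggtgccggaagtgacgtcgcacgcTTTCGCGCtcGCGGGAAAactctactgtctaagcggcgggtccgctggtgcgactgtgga

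In the 15 genes with a word, 21 words were found, 14 of them between 100 bases before the start and the end of the window. The other genes with a word were *Orc1*, *Orc3*, *Cdc6*, *Cdt1*, *Gins3*, *Pola1*, *Pold1*, *Pold3*, *Pole2* and *Lig1*. *Mcm7* has another RefSeq window, with no word, and *Lig1* also has other windows with no word. A match is only of letters, and no binding was measured.

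**Figure D1:**
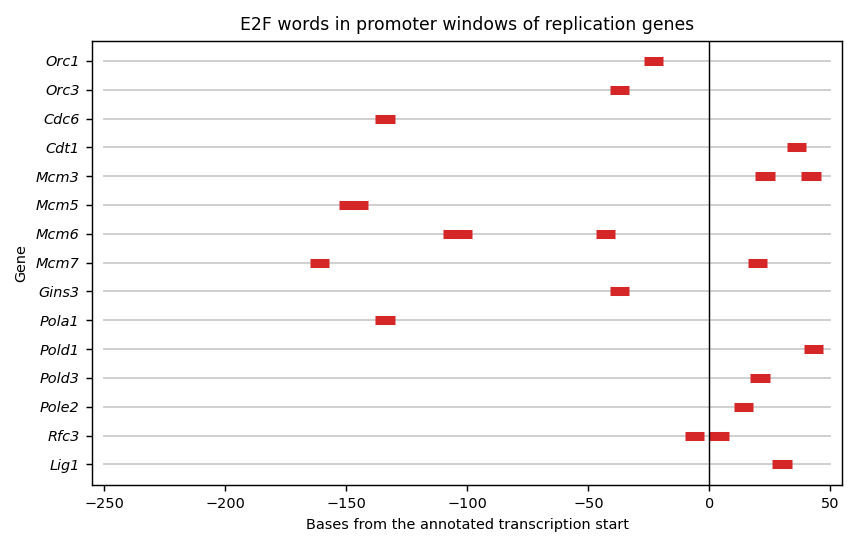
E2F words (red bars, 8 bases each) in the promoter windows of the 15 replication genes that hold at least 1, drawn against distance in bases from the annotated transcription start (vertical line). Words lie on both sides of the start, from position -165 in *Mcm7* to 39 in *Pold1*, and overlapping words in *Mcm5* and *Mcm6* form longer bars.

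Transcripts of the whole machinery were present in every library. Mean FPKM over the 9 libraries ran from 4.47 for *Orc1*, an origin recognition subunit whose level is known to vary through the cell cycle, to 218 for *Pcna*, the sliding clamp that tethers polymerases to DNA. The median level of the 45 genes of at least 5 FPKM was 36.3, against 18.7 over 9978 loci of at least 5 FPKM. After *Pcna*, the highest were *Mcm6* (122), *Mcm7* (107), *Rpa3* (83.1) and *Mcm3* (76.9). The lowest after *Orc1* were *Gins3* (9.99), *Cdc6* (11.4) and *Pole* (11.9). FPKM is scaled by transcript length, so these levels can be set side by side, but only roughly. Values of single libraries still varied with transcript length and GC content, as given below.

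The other licensing genes had 9-library means of 50.9 FPKM (*Orc6*), 20.9 (*Orc5*), 19.3 (*Orc2*), 16.4 (*Orc4*) and 12.9 (*Orc3*) in the origin recognition complex, 35.6 for *Cdt1* and 50.1 for *Gmnn*, and 73.3, 70.9 and 68.0 for the helicase genes *Mcm5*, *Mcm4* and *Mcm2*. Of the firing genes, the GINS subunits *Gins2*, *Gins4* and *Gins1* were at 48.1, 36.3 and 32.4, *Dbf4* and *Cdc7* at 32.0 and 19.9, and the helicase activators *Cdc45* and *Mcm10* at 23.8 and 15.0. These steps thus spanned the low and middle part of the range, apart from the helicase.

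Among the polymerase genes, mean FPKM was 47.1 for *Prim1*, 30.4 for *Pola2*, 24.6 for *Prim2* and 17.5 for *Pola1* in the primase complex, 44.8, 26.3 and 25.4 for *Pold2*, *Pold1* and *Pold3*, and 19.9 for *Pole2*. Clamp loader genes were at 68.4 (*Rfc2*), 47.8 (*Rfc4*), 43.7 (*Rfc3*), 38.2 (*Rfc5*) and 31.7 (*Rfc1*). The single-strand binding subunits *Rpa1* and *Rpa2* were at 50.6 and 49.6, the Okazaki fragment enzymes *Fen1* and *Lig1* at 49.9 and 45.7, and the fork protection and coupling genes *Tipin*, *Timeless* and *Wdhd1* at 73.5, 18.2 and 16.6.

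Subunits of a complex were not at equal transcript levels. In WT kidneys, *Orc6* averaged 50.4 ± 7.40 FPKM (SD, n = 3) and *Orc1* 4.70 ± 0.779, a ratio of 10.7, and the ranges of *Orc6* and of the next subunit, *Orc5*, did not overlap. *Orc5*, *Orc2*, *Orc4* and *Orc3* each overlapped their neighbour in the order. Loading factor *Cdc6* (11.6 ± 1.81) lay below *Cdt1* in every WT library, while *Cdt1* and its inhibitor *Gmnn* (mean 50.5 FPKM) overlapped.

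The helicase was more even. Its 6 genes ran from 66.2 FPKM (*Mcm2*) to 124 (*Mcm6*) in WT, a ratio of 1.88, and no subunit stood clear of its neighbour in the order *Mcm6*, *Mcm7*, *Mcm3*, *Mcm5*, *Mcm4*, *Mcm2*. Among the helicase activators, *Gins2* (46.8), *Gins4*, *Gins1* and *Cdc45* overlapped stepwise, then *Mcm10* and *Gins3* (10.3) each lay apart. *Gins3* was thus at 1 part in 4.57 of *Gins2*, its partner in the GINS tetramer. The deposited *Gins2* locus reaches 89767 bases past the annotated gene, so its level may hold other reads. The kinase subunit *Cdc7* (21.0) lay below its activator *Dbf4* (33.4).

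At the fork, an accessory subunit exceeded the catalytic one in polymerases epsilon and delta. *Pole2* (20.4 FPKM in WT) was above *Pole* (12.1), the catalytic subunit of the leading-strand polymerase. *Pold2* (42.4) was above *Pold1* (25.3), the catalytic subunit of polymerase delta. The deposited *Pold2* locus reaches 10314 bases past the annotated gene, so its level may hold other reads. *Prim1*, the catalytic primase subunit, was at 47.7, above *Pola1* (18.9), the catalytic subunit of polymerase alpha. *Pcna* exceeded the lowest clamp loader subunit, *Rfc1*, 6.64-fold. *Rpa3* (77.7) exceeded *Rpa1* and *Rpa2* (49.3), *Fen1* (49.9) and *Lig1* (43.1) overlapped, and *Tipin* (75.1) was above *Timeless* (17.9), its partner in fork protection.

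**Figure D2:**
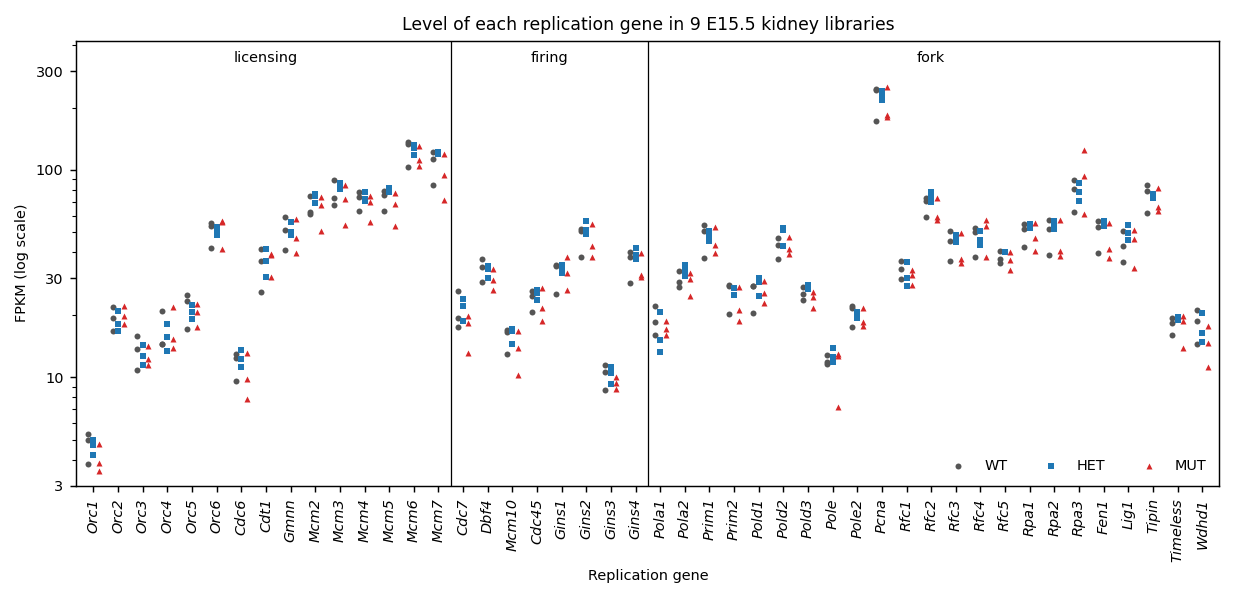
FPKM (log axis) of each of the 46 replication genes in the 9 libraries, in order of licensing, firing and fork steps. Each point is 1 library (circles WT, squares HET, triangles MUT), and levels run from *Orc1* at 3.55 to 5.32 FPKM to *Pcna* at 172 to 252.

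Libraries of 1 genotype differed from each other across the machinery. On the log2(FPKM + 1) scale, each gene's deviation from its own 9-library mean was taken, and the median deviation of the 46 genes was found in each library. It was -0.19 in WT-1, 0.14 in WT-2 and 0.10 in WT-3. In HET-1, HET-2 and HET-3 it was 0.12, 0.01 and 0.11. In MUT-1, MUT-2 and MUT-3 it was -0.14, -0.23 and 0.13. Over all loci the same median stayed between -0.03 and 0.03 in every library. Low libraries were thus found in both WT and MUT, and MUT-3 lay above the 9-library mean for 44 of the 46 genes, more than any other library.

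MUT-2 was the lowest library for 24 genes and WT-1 for 12, and neither WT-2, HET-1, HET-3 nor MUT-3 was lowest for any. By step, the median deviation in MUT-2 was -0.22 for licensing, -0.25 for firing and -0.23 for fork genes, and in WT-1 it was -0.20, -0.18 and -0.18. In HET-2 the steps differed in sign, at -0.01, -0.03 and 0.07.

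The same MUT-2 library was also the highest of 9 for 5 genes, *Orc2*, *Orc4*, *Orc6*, *Rfc4* and *Rpa3*. *Rpa3*, the small subunit of replication protein A, was at 62.7, 89.8 and 80.7 FPKM in the WT libraries, at 86.1, 78.5 and 70.9 in HET and at 61.0, 124 and 93.9 in MUT, each in the order of their numbers. Its level in MUT-2 was above every other library and its lowest value was also in a MUT library. The ratio of *Rpa3* to *Rpa1* was 3.04 in MUT-2 and 1.29 to 1.69 in the other 8. *Pole2* over *Pole* was likewise 2.59 in MUT-2 and 1.36 to 1.82 elsewhere, and *Orc6* over *Orc1* was 15.9 in MUT-2 and 10.4 to 11.8 elsewhere.

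*Pole*, whose longest annotated transcript has 7163 bases, stood at 11.5, 12.9 and 11.9 FPKM in WT, at 11.9, 12.5 and 13.9 in HET and at 13.0, 7.15 and 12.7 in MUT. MUT-2 alone was low for it, and the other 8 libraries overlapped. *Rpa3* has the shortest transcript of the 46, at 682 bases. Within MUT-2, deviation and transcript length had a Spearman rho of -0.34 over the 46 genes, against 0.01 over all loci with a length. In WT-1 and MUT-1 rho was 0.47 and 0.51 over the 46 genes and 0.60 and 0.63 over all loci, while it was negative over all loci in WT-2, HET-1, HET-2 and MUT-3 (-0.42, -0.61, -0.52 and -0.44). GC content moved as well, with rho over the 46 genes of -0.67 in WT-3, 0.65 in HET-1 and 0.79 in HET-2. Over all loci with a length, rho with GC content was -0.67, 0.35 and 0.52 in these libraries. These correlations are across genes of 1 library, which share its depth and preparation, and the part of length and GC in the levels was not tested beyond the corrected values given with each comparison.

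**Figure D3:**
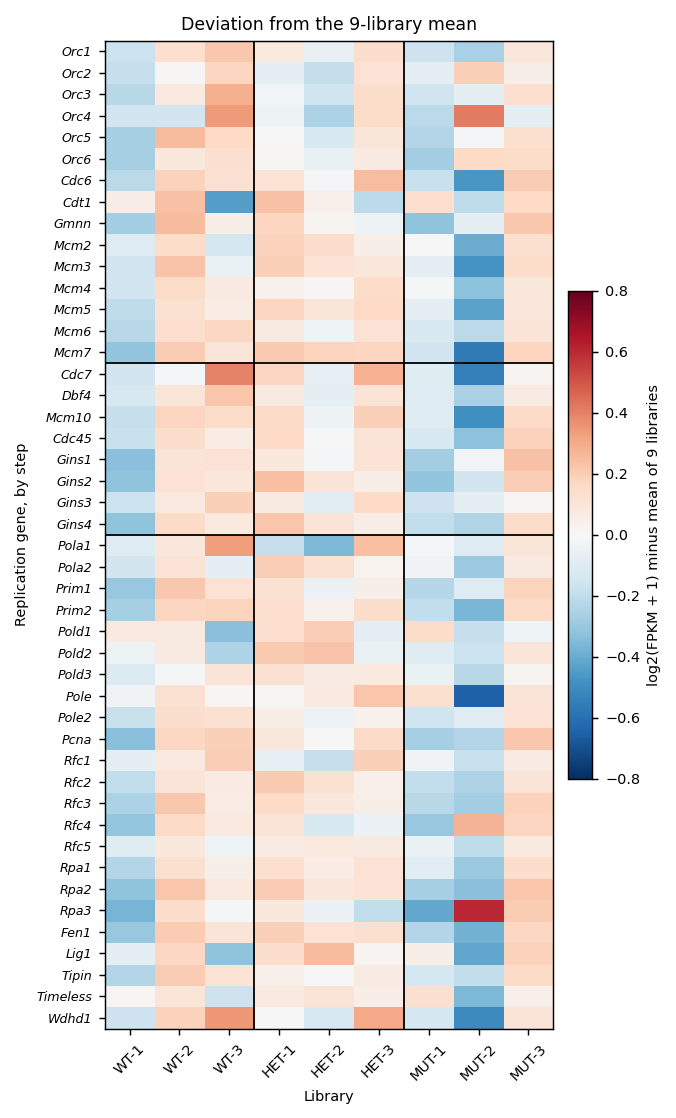
Deviation of each replication gene (rows, by step) from its mean over the 9 libraries on the log2(FPKM + 1) scale, for each library (columns). Blue columns mark WT-1, MUT-1 and MUT-2, with medians of -0.19, -0.14 and -0.23, and *Rpa3*, *Orc4* and *Rfc4* in MUT-2 are red against that trend.

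The coefficient of variation of the 45 genes of at least 5 FPKM had a median of 12.9%, against 11.7% over all loci of that level. It was lowest for *Rfc5* (7.04%) and highest for *Rpa3* (23.0%). The ratio of the highest to the lowest library was 1.23 for *Rfc5*, 1.99 for *Cdc7* and 2.04 for *Rpa3*.

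MUT was then compared with HET, the contrast in which both groups carry the *Foxd1* insertion and differ in the second *Ntn1* allele. Most of the machinery had lower mean levels in MUT, but no gene passed the test. Of 10081 loci that reached a mean of 5 FPKM in 1 or both genotypes, 0 (0%) had an adjusted p under 0.05 (limma on log2(FPKM + 1) with Benjamini-Hochberg adjustment) and 636 (6.31%) had an unadjusted p under 0.05. Of the 45 replication genes tested, 0 passed either threshold, and only *Orc1* was too low to be tested. The log2 fold change was below 0 for 38 of the 45, against 54.1% of all loci tested. Their median was -0.17, against -0.02 over all loci, and single genes ran from -0.37 (*Mcm7*) to 0.19 (*Rpa3*). In bulk kidney, fewer dividing cells, less transcript per cell and spread between libraries cannot be told apart. In the paper, EdU uptake, its measure of cell cycling, did not differ significantly at E15.5 in nephron progenitors or ureteric tip cells. Other cell types were not counted in that assay.

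Among licensing genes, 10 of 14 were below 0, with a median of -0.12. All 6 helicase genes were among them, from -0.37 for *Mcm7* to -0.13 for *Mcm6*, while *Orc2*, *Orc4*, *Orc6* and *Cdt1* were above 0. *Mcm7* (chr5:138164589-138171862, mm10, minus strand) was at 84.7, 122 and 113 FPKM in WT, at 122, 119 and 119 in HET and at 94.8, 71.5 and 119 in MUT. MUT-1 and MUT-2 lay well below HET, and MUT-3 lay under the lowest HET library by less than 1 FPKM. The log2 fold change was -0.37 (SE 0.17, 95% interval -0.74 to 0.0042, adjusted p = 0.738 from limma).

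*Mcm5* (chr8:75109509-75128439, plus strand) was at 82.2, 78.0 and 81.3 FPKM in HET and at 68.9, 53.8 and 77.5 in MUT. All MUT libraries were below all HET libraries, again narrowly for MUT-3. Its log2 fold change was -0.28 (SE 0.14, 95% interval -0.59 to 0.03, adjusted p = 0.738 from limma). In WT it was at 63.1, 79.2 and 76.0, so WT overlapped both. *Cdc6*, the ATPase that acts with the origin recognition complex to load the helicase, was at 7.86 to 13.1 FPKM in MUT and 11.2 to 13.5 in HET. *Cdt1* was at 30.4 to 39.3 in MUT and 30.3 to 41.5 in HET, and *Gmnn* at 39.6 to 57.9 and 48.3 to 55.9.

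**Figure D4:**
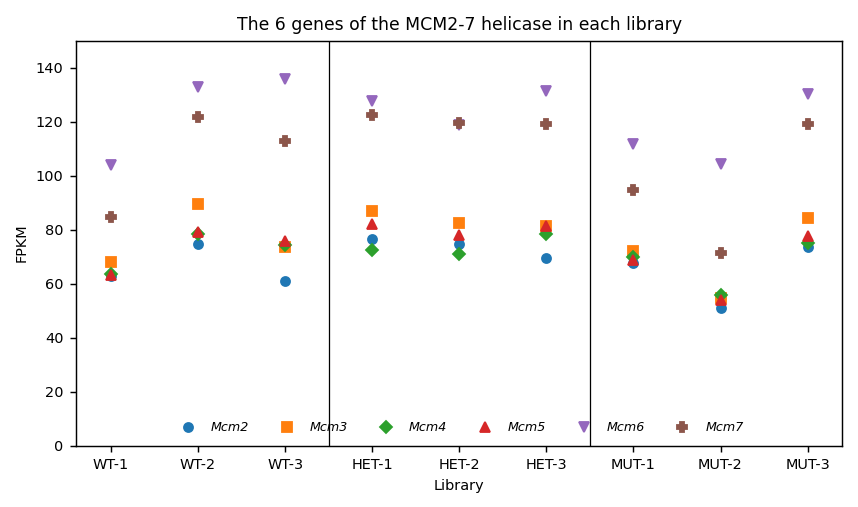
FPKM of the 6 genes of the MCM2-7 helicase in each of the 9 libraries, a marker per gene. All 6 were lower in MUT-2 than in every HET library, for example *Mcm7* at 71.5 against 119 to 122, while MUT-3 lay near the HET level.

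Firing genes were below 0 in 8 of 8 cases, with a median of -0.20, and in 7 of 8 after correction for transcript length and GC content. *Cdc7* (chr5:106964322-106984439, plus strand), the kinase that phosphorylates the loaded helicase, was at 22.1, 18.7 and 23.9 FPKM in HET and at 18.2, 13.1 and 19.8 in MUT. MUT-3 was above HET-2, so the groups overlapped. The log2 fold change of -0.34 (SE 0.15, adjusted p = 0.738 from limma) had an unadjusted p of 0.05002, just above the threshold. The paper, which ranked genes of this contrast by its own P-value, placed *Cdc7* among its top downregulated genes. *Gins4* (chr8:23226610-23237668, minus strand), a GINS subunit, was at 42.0, 38.7 and 37.3 in HET and at 31.3, 30.3 and 39.9 in MUT, with a log2 fold change of -0.22 (SE 0.13, adjusted p = 0.738 from limma). MUT-3 was again within the HET range, and the log2 fold change was -0.10 after correction for length and -0.07 after correction for length and GC content. *Mcm10* was at 10.3 to 16.7 FPKM in MUT and 14.4 to 17.1 in HET, and *Gins1* had the smallest difference of the step, at -0.08, which turned to 0.05 with the length correction and 0.09 with length and GC content.

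At the fork, 20 of 23 genes were below 0, with a median of -0.18. *Fen1* (chr19:10199132-10203943, minus strand), the nuclease that trims the flaps of Okazaki fragments, was at 56.6, 53.6 and 54.1 FPKM in HET and at 41.8, 37.8 and 55.5 in MUT. *Rfc2* (chr5:134582690-134598328, plus strand), a clamp loader subunit, was at 78.6, 74.2 and 69.8 in HET and at 59.2, 57.2 and 73.1 in MUT. In both, MUT-1 and MUT-2 were below HET and MUT-3 was inside its range. The log2 fold changes were -0.30 for *Fen1* (SE 0.14) and -0.24 for *Rfc2* (SE 0.13), each with an adjusted p of 0.738 from limma.

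*Pold3*, an accessory subunit of polymerase delta, was the third gene besides *Mcm5* and *Mcm7* with all MUT libraries below all HET libraries, at 24.4, 21.6 and 25.8 FPKM against 27.7, 26.6 and 26.8. Such a lower separation was seen for 3 of the 45 genes and for 4.50% of all loci, and the opposite one for 0 genes and 5.19% of loci. *Pcna* was at 231, 217 and 241 in HET and at 180, 184 and 252 in MUT, so MUT held its highest library of all 9 as well as a pair below every HET library. Only *Pola1*, *Rfc4* and *Rpa3* of the fork genes were above 0.

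The size of the shift moved with MUT-2, while its sign held when any 1 library was left out. MUT-1 and MUT-2 were both low (median deviations of -0.14 and -0.23), so leaving out 1 of them keeps the other. MUT-3, at 0.13, lay above HET-1, HET-2 and HET-3 (0.12, 0.01 and 0.11). Genes of 1 library moved together, so the 45 genes are not independent observations. Without MUT-2, the median over the 45 genes was -0.07, with 38 below 0. Without MUT-3 it was -0.25, and without MUT-1 it was -0.16. Leaving out HET-2, the library with hepatocyte transcripts, gave -0.18 with 41 below 0. After each library was corrected for transcript length and GC content, 35 of 45 genes were below 0 and the median was -0.13, against 0.00 over all loci. *Gmnn*, *Gins1* and *Pole2* turned from below to above 0. Firing genes then had a median of -0.10 and licensing and fork genes -0.10 and -0.14. Genes with an E2F word in a window had a median of -0.15 over 14 genes, and those with a window but no word -0.16 over 22.

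**Figure D5:**
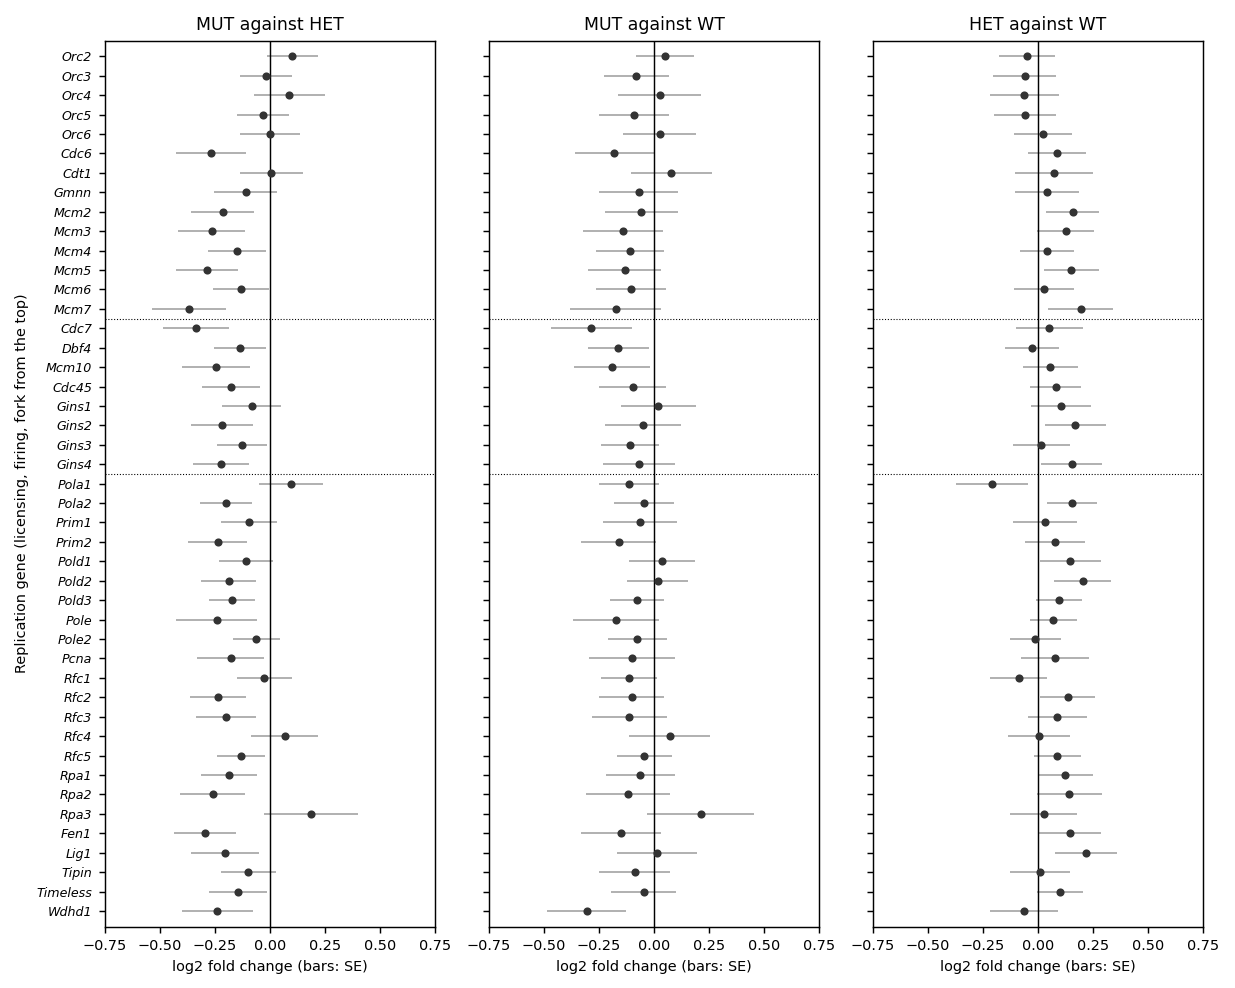
log2 fold change with its standard error for the 45 replication genes tested, in each of the 3 comparisons, ordered by step (dotted lines). Most points lie left of 0 for MUT against HET (38 of 45), fewer do so for MUT against WT (35), and most lie right of 0 for HET against WT (36). No gene passed the adjusted threshold in any panel.

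MUT was next compared with WT, which differs in both the Cre insertion and stromal *Ntn1*. Of 10096 loci, 0 (0%) had an adjusted p under 0.05 and 65 (0.644%) an unadjusted p under 0.05, with 0 replication genes at either. The log2 fold change was below 0 for 35 of 45, against 51.3% of loci, and the median was -0.09, against 0.00. By step the medians were -0.09 for licensing, -0.10 for firing and -0.08 for fork genes. No replication gene had MUT and WT libraries apart, where 1.34% of loci were apart with MUT lower and 1.32% with MUT higher.

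*Wdhd1*, which couples polymerase alpha to the helicase, was at 14.4, 18.7 and 21.0 FPKM in WT and at 14.7, 11.2 and 17.6 in MUT. WT-1 and MUT-1 were near each other, and the log2 fold change was -0.31 (SE 0.18, 95% interval -0.71 to 0.10, adjusted p = 1.00 from limma). For *Cdc7* it was -0.28 (SE 0.18), for *Dbf4* -0.16 (SE 0.14), for *Cdc6* -0.18 (SE 0.18), for *Mcm7* -0.17 (SE 0.21) and for *Prim2*, the accessory primase subunit, -0.16 (SE 0.17), each with an adjusted p of 1.00 from limma. The median over the 45 genes moved with single libraries of both groups. It was -0.02 without MUT-2 (28 genes below 0) or without WT-2 (25 below 0), -0.21 without WT-1 (41 below 0) and -0.18 without MUT-3 (39 below 0). Correction for length and GC content gave -0.07.

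HET was finally compared with WT, which addresses the Cre insertion with loss of 1 stromal *Ntn1* allele. Of 10105 loci, 0 (0%) were called after adjustment and 108 (1.07%) had an unadjusted p under 0.05, with 0 replication genes at either. Here 36 of 45 genes were above 0 and 9 below, against 47.6% of loci below 0, and the median was 0.08. *Lig1*, the ligase that seals Okazaki fragments, was at 42.8, 50.7 and 36.0 FPKM in WT and at 49.9, 54.1 and 45.9 in HET. The groups overlapped and the log2 fold change was 0.22 (SE 0.14, adjusted p = 0.998 from limma). *Pold2* had 0.20 (SE 0.13), *Mcm7* 0.19 (SE 0.15), *Gins2* 0.17 (SE 0.14), *Mcm2* 0.16 (SE 0.12) and *Gins4* 0.15 (SE 0.14), all with an adjusted p of 0.998 from limma.

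This direction depended on WT-1. Without it, 29 genes were below 0 in HET and the median was -0.04, and without HET-2, 3 were below 0. The median was 0.15 without WT-2. After correction for length and GC content it was 0.06, with 13 of 45 below 0. No replication gene had HET and WT apart, where 1.06% of loci were apart with HET lower and 2.15% with HET higher. *Pola1*, the lowest of the 45 at -0.21, was at 16.0, 18.5 and 22.1 FPKM in WT and at 15.1, 13.2 and 20.6 in HET. The log2 fold changes of the 45 genes had a Spearman rho of 0.77 with the GC content of their transcripts. It was 0.05 for MUT against WT and -0.50 for MUT against HET. This relation was computed for the 45 genes only, so it is not shown to be particular to them. The 3 comparisons share libraries in pairs, so their values are not independent.

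Most other genes of DNA synthesis and mitosis were also below 0 in MUT against HET, and none of them passed the test. Of 26 other replication factors tested (of 28 listed), 22 were below 0, with a median of -0.12, and *Pole3*, a histone-fold subunit of polymerase epsilon, had the smallest p at -0.25 (SE 0.12, adjusted p = 0.738 from limma). *Donson*, a helicase activation factor, followed at -0.18. Of 8 genes of nucleotide supply, 7 were below 0 (median -0.11), with *Tk1*, thymidine kinase, at -0.24 and *Ctps*, a CTP synthase gene, at -0.18. All 7 mitosis and proliferation marks were below 0 (median -0.15), including *Birc5*, at 114 FPKM in MUT and 140 in HET, and *Ccnb1*, the mitotic cyclin B1. G1/S control genes were split, with 8 of 20 below 0 and a median of 0.04, and *Cdk2* and *Cdk4* at -0.25 and -0.21 had the smallest p.

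The summed level of the 7 mitosis and proliferation marks differed between libraries of 1 genotype too. It was 506, 629 and 604 FPKM in the WT libraries, 597, 561 and 614 in HET, and 529, 438 and 617 in MUT. MUT-2, WT-1 and MUT-1 had the 3 lowest sums, as they had the 3 lowest medians of the replication genes. Nephron progenitor markers summed to 209 FPKM in MUT-2, 197 in WT-1 and 224 in MUT-1, against 177 to 283 in the others, and stromal progenitor markers to 340, 331 and 318, against 311 to 327. Their part in the levels of replication genes was not tested.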

How the data were processed

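Total RNA of whole E15.5 kidneys was made into libraries with a stranded mRNA kit. STAR alignments were passed by the authors to cufflinks and cuffmerge, and CuffDiff gave the deposited FPKM. The submitters' processing notes name mm10. Tool versions and the gene annotation are not given in the sources used here, nor is whether the values use strand. A protein-coding gene on the opposite strand overlaps 11 of the 46 genes, a coding gene on the same strand overlaps 2, and *Pcna* has 2 named pseudogenes. Overlaps with non-coding genes were not counted. The deposited loci of 6 genes reach over 5000 bases past the GENCODE gene (*Orc3*, *Orc4*, *Gins2*, *Pold2*, *Rfc4* and *Lig1*). Reads at all of these may be shared.

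Loci that reached a mean of 5 FPKM in 1 or both genotypes were compared on log2(FPKM + 1), which understates changes of low genes, with limma 3.58.1 in R 4.3.3 (lmFit, eBayes with trend). Each fit held the libraries of the 2 genotypes compared, without a block. Tests were two-sided, with Benjamini-Hochberg adjustment over all loci and a threshold of 0.05. Exact permutation of 3 against 3 libraries cannot give p under 0.1, so none was used. The paper describes the 3 kidneys per genotype as biological replicates. Which cross a number stands for is not given in the sources used here, and p-values measure the spread between these libraries. This spread was estimated from 3 libraries per genotype and moderated over all loci tested. FPKM carries no read depth, so the part of counting error in it is unknown.

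The 46 genes, the lists and the rules were chosen with earlier results of these data known. Each replication gene has its FPKM given, and fold changes with adjusted p are printed for the 2 genes of each step that rank first by p in each comparison. Of each other list the 2 genes that rank first in MUT against HET are named, and genes singled out for other reasons were chosen after their values were seen. The alternatives were pseudocounts of 0.1 and 3, a 1 FPKM minimum, no filter, quantile rescaling, median-ratio rescaling, a joint fit of all 9 libraries, no trend, a replicate block and each library left out. Correction of each library for transcript length, and for length and GC content (natural splines with 5 degrees of freedom, GENCODE M21), was added after the data were seen. The last 30 bases of 39 of the 46 promoter windows were found in a GENCODE transcript of the gene in the same orientation. The fit was tested on simulated data. Python 3.11.15, numpy 2.4.6, pandas 2.3.3 and matplotlib 3.10.9 were used.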

Additional observations from a re-analysis of the deposited data

How the results depend on the processing

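No replication gene passed the adjusted threshold in any comparison under any alternative run. The number of loci called over the whole table stayed 0 in the settings that kept all libraries. It ranged from 0 to 3 in each of the 3 comparisons when single libraries were left out. Without WT-1, 3 loci were called between MUT and WT, without WT-2, 3 between HET and WT, and without MUT-3, 3 between MUT and HET. The number of replication genes below 0 in HET against WT moved most, from 3 (without HET-2) to 29 (without WT-1), and was 17 with the length correction, against 9 as reported. The cause was not tested. *Mcm7* in MUT against WT turned from -0.17 to 0.015 without MUT-2 (range -0.35 to 0.015 over single libraries left out), and *Gins4* in HET against WT from 0.15 to -0.0053 with the length and GC correction. In MUT against HET, 34 to 41 of the 45 or 46 genes tested were below 0 under every alternative, and the median ranged from -0.25 to -0.07.

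Same-numbered libraries mostly did not deviate together, with r of -0.32, 0.06 and -0.14 for MUT and HET. For MUT and WT r was 0.56, -0.26 and -0.04, and for HET and WT -0.19, -0.05 and 0.17. MUT-1 and WT-1, at 0.56, did deviate together. These values cannot settle whether a number marks a shared cross, and the main fits did not pair the libraries. With a replicate block, 0 loci were called in each comparison, as without it. Read depth is unknown from FPKM, so no counting error is given.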
